A study of Mus musculus with 18 samples.

Results

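Fatty acid oxidation and its control by peroxisome proliferator-activated receptors (PPARs) were followed through 34 genes in mouse jejunum after abdominal irradiation. The genes were a list of mitochondrial and peroxisomal fatty acid oxidation enzymes, a ketone body enzyme, 2 regulators and other PPAR target genes, matched by symbol to the Ensembl gene IDs of the count table. All 34 were found among its 54532 genes. Of these, 33 had enough counts to be tested, and Cyp4a14 had 0 counts in all 18 libraries.

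RNA was sequenced from whole jejunum of C57BL/6 mice, an inbred strain, aged 8 to 12 weeks and carrying no other named allele. FLASH mice (7 libraries) received 1 dose of 15 Gy over the abdomen at an ultra-high dose rate, CONV mice (5 libraries) received the same 15 Gy at a conventional dose rate, and tissue was taken 16 h later. Control mice (6 libraries) were not irradiated, and the labels give neither the time their tissue was taken nor the sex of any mouse. Nothing in the labels ties a library to a separate mouse, and the p-values therefore cover the spread among libraries only, part of which may be technical.

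Enterocytes take up dietary fatty acids and can send them to triglyceride for export, to lipid droplets, or to oxidation. For mitochondrial oxidation, long-chain acyl-CoA passes the carnitine shuttle and then repeated rounds of dehydrogenation, hydration, a further oxidation and thiolysis, while peroxisomes shorten very long chains. PPAR-alpha, encoded by Ppara, is a nuclear receptor for fatty acids that, paired with a retinoid X receptor, binds DNA and turns on many of these genes, with PGC-1-alpha, encoded by Ppargc1a, as a coactivator.

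Levels are given in CPM, the estimated read counts of a gene scaled to libraries of a common size, and differences as log2 fold changes ± SE, where 1 is a 2-fold difference. The values of single CONV libraries are listed in the order CONV 2, CONV 3, CONV 5, CONV 6 and CONV 7. A gene is called higher or lower where the edgeR quasi-likelihood test gave a Benjamini-Hochberg adjusted p under 0.05 over 16257 genes. Total estimated counts were 23.1 to 30.2 M in FLASH, 19.9 to 26.99 M in CONV and 24.3 to 27.8 M in control libraries. Epithelial markers showed that the tissue was intestine: all 13 absorptive enterocyte markers were measured, with a summed level of 17900 to 37000 CPM in FLASH, 17500 to 28000 CPM in CONV and 13400 to 25800 CPM in control libraries. Albumin, a defining hepatocyte transcript, did not exceed 0.203 CPM in FLASH, 0.209 CPM in CONV and 0.110 CPM in control libraries. In RNA of whole tissue, fewer cells of a type and less RNA per cell cannot be told apart.

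Of the 33 measured genes, 16 were higher than control at both dose rates, a joint count for which the share of all tested genes is not given here. In FLASH against control, 22 were higher, 2 were lower (Eci1 and Vnn1) and 9 did not pass. The background was that 16.7% of all tested genes were called higher and 21% lower. Of the 22, 15 were more than 2-fold higher, where 1219 of all 16257 tested genes were called higher by more than 2-fold. The median log2 fold change of the 33 was 0.94, against -0.07 for all tested genes. The 33 genes were chosen with earlier results of these data known. The part of that choice in their difference from the background was not tested, here and in the comparisons below. In 14 of the 33, every FLASH library was above every control library, and in Vnn1 every FLASH library was below, where 13.8% of all tested genes had no overlap in either direction.

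In CONV against control, 17 of the 33 genes were higher, 0 lower and 16 did not pass, where 10.2% of all tested genes were called higher and 12% lower. Of the 17, 10 were more than 2-fold higher, where 677 of all 16257 tested genes were called higher by more than 2-fold. Without CONV 2, 11 of the 33 were called higher, and leaving out each other library gave 12 (without CONV 6) to 22 (without control 6). The median was 0.59, against -0.04 for all tested genes. CONV and control libraries did not overlap in 10 genes, all with CONV above, where 10.4% of all tested genes had no overlap in either direction. Both comparisons share the 6 control libraries. Of the 33 genes, 16 were higher in both, 6 passed as higher only in FLASH (Cpt1a, Cpt2, Hadha, Hsd17b4, Ppara and Ppargc1a), 1 only in CONV (Etfb), and 8 passed in no comparison. The share of all tested genes in each of these joint sets is not given here, and these joint counts have no background.

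FLASH was also set directly against CONV. Here 9 genes were higher in FLASH (Ppara, Ppargc1a, Angptl4, Cpt1a, Cpt2, Cd36, Plin2, Acot2 and Ucp2), 2 were lower (Eci1 and Vnn1) and 22 did not pass. The background was 9.88% of all tested genes higher and 9.91% lower. The median of the 33 was 0.35, against -0.02 for all tested genes. FLASH and CONV libraries did not overlap in 8 of the 33 genes, 6 with FLASH above and 2 with FLASH below, where 8.53% of all tested genes had no overlap. Of the 16 genes higher at both dose rates, 11 did not pass between them, with log2 fold changes from -0.08 to 0.66. A test that is not passed does not show that 2 groups are equal. Acadl, Eci2 and Pex11a of these 11 passed as higher in FLASH with 1 surrogate variable (0.59, 0.73 and 0.57, adjusted p = 0.0208, 0.00636 and 0.0064). They also passed without control 6, CONV 6 and FLASH 1 (0.75, 0.85 and 0.68, adjusted p = 0.0167, 0.0269 and 0.0331). Acadl also passed with the length offset (0.75, adjusted p = 0.0134) and Eci2 with limma-voom (0.79, adjusted p = 0.0478). Scaled by library totals, which moved the median of all genes to -0.44 in FLASH against control, -0.25 in CONV against control and -0.18 in FLASH against CONV, the higher and lower calls among the 33 were 18 and 5, 12 and 2, and 8 and 4 in these comparisons.

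**Figure D1:**
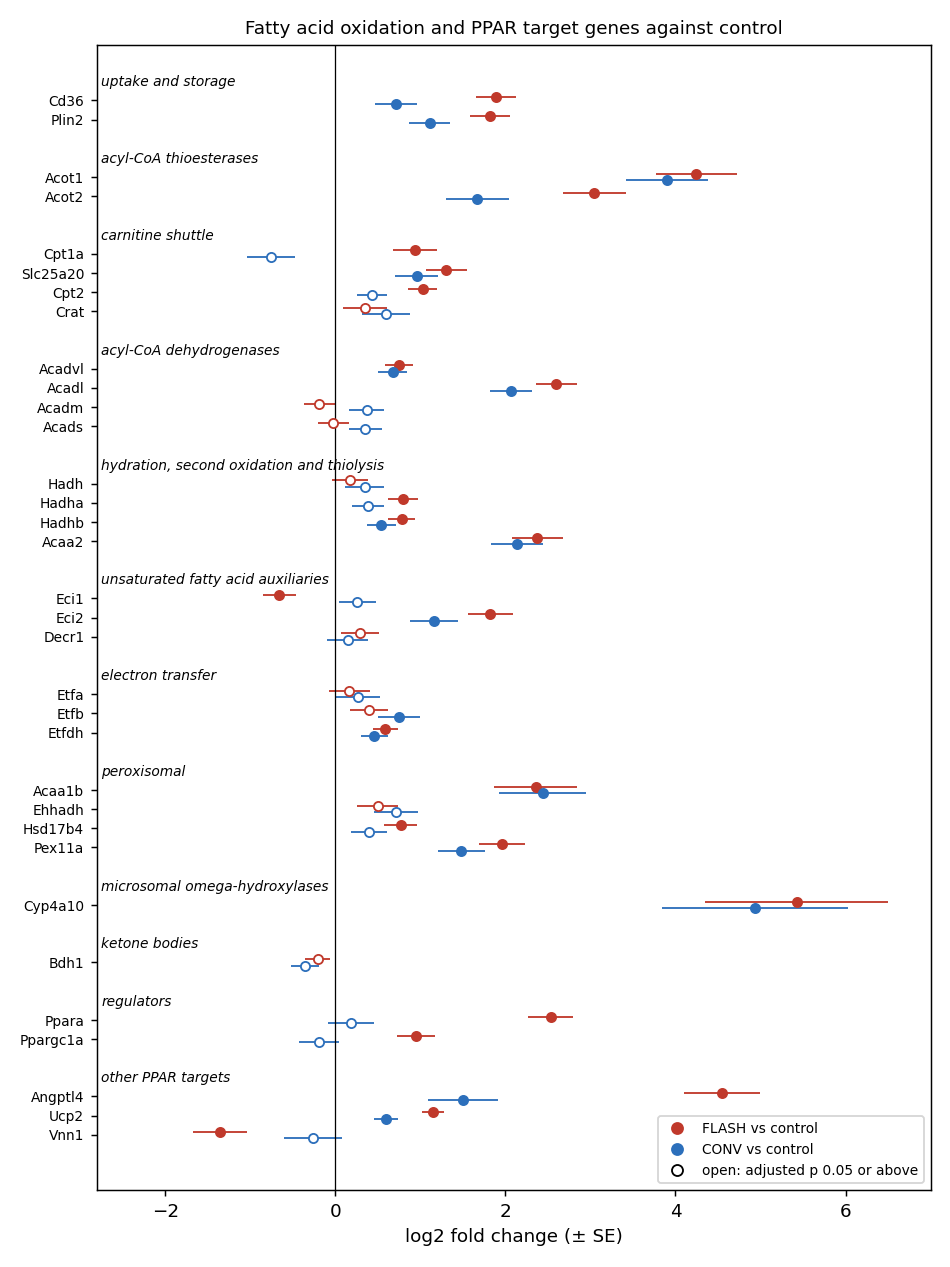
Log2 fold change ± SE of the 33 tested genes in FLASH against control (red) and CONV against control (blue), grouped by role, with open symbols where the adjusted p was 0.05 or above. Most symbols lie right of 0, Ppara and Angptl4 are far apart between the dose rates (2.53 and 4.55 in FLASH, 0.18 and 1.50 in CONV), and Acot1, Acadl, Acaa2, Acaa1b and Cyp4a10 are high in both.

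Both regulators were higher in FLASH than in CONV and than in control, and neither passed in CONV against control. Ppara (ENSMUSG00000022383, chromosome 15, 85734983 to 85802819, plus strand, mm10) measured 33.1 to 105 CPM in FLASH libraries, with a median of 85.4. It measured 14.03, 18.8, 15.6, 17.5 and 10.96 CPM in the 5 CONV libraries, and 10.1 to 19.03 CPM in control libraries, with a median of 12.2. Every FLASH library lay above every CONV and every control library, and all CONV libraries lay within the control range. Its log2 fold change was 2.53 ± 0.26 in FLASH against control (adjusted p = 1.67e-06), 0.18 ± 0.27 in CONV against control (adjusted p = 0.630) and 2.35 ± 0.28 in FLASH against CONV (adjusted p = 0.000124).

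Ppargc1a (ENSMUSG00000029167, chromosome 5, 51454250 to 51567726, minus strand), which also promotes mitochondrial biogenesis, measured 37.8 to 107 CPM in FLASH with a median of 81. CONV libraries measured 27.2, 37.8, 49.96, 39.9 and 25.9 CPM, and control libraries 32.8 to 52.03 CPM with a median of 40.2. Except for FLASH 1, at 37.8 CPM, all FLASH libraries were above all CONV and control libraries. The log2 fold change was 0.94 ± 0.22 in FLASH against control (adjusted p = 0.00289), -0.19 ± 0.24 in CONV against control (adjusted p = 0.565) and 1.14 ± 0.24 in FLASH against CONV (adjusted p = 0.00368).

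Angptl4 (ENSMUSG00000002289, chromosome 17, 33773750 to 33781830, minus strand) encodes a secreted inhibitor of lipoprotein lipase and is a well-known PPAR target. It measured 88.3 to 473 CPM in FLASH with a median of 400.2, against 75.7, 31.2, 26.4, 41.9 and 17.4 CPM in CONV and 8.33 to 19.6 CPM in control libraries with a median of 12.7. The lowest FLASH library, FLASH 4, lay above the highest CONV library, CONV 2, while CONV 7 lay within the control range. Angptl4 was higher in FLASH than in control by 4.55 ± 0.45 (adjusted p = 8.55e-07) and higher in FLASH than in CONV by 3.05 ± 0.45 (adjusted p = 0.000370). In CONV against control it was higher by 1.50 ± 0.41 (adjusted p = 0.0159). Without CONV 2 that difference was 1.11 and did not pass (adjusted p = 0.0700).

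**Figure D2:**
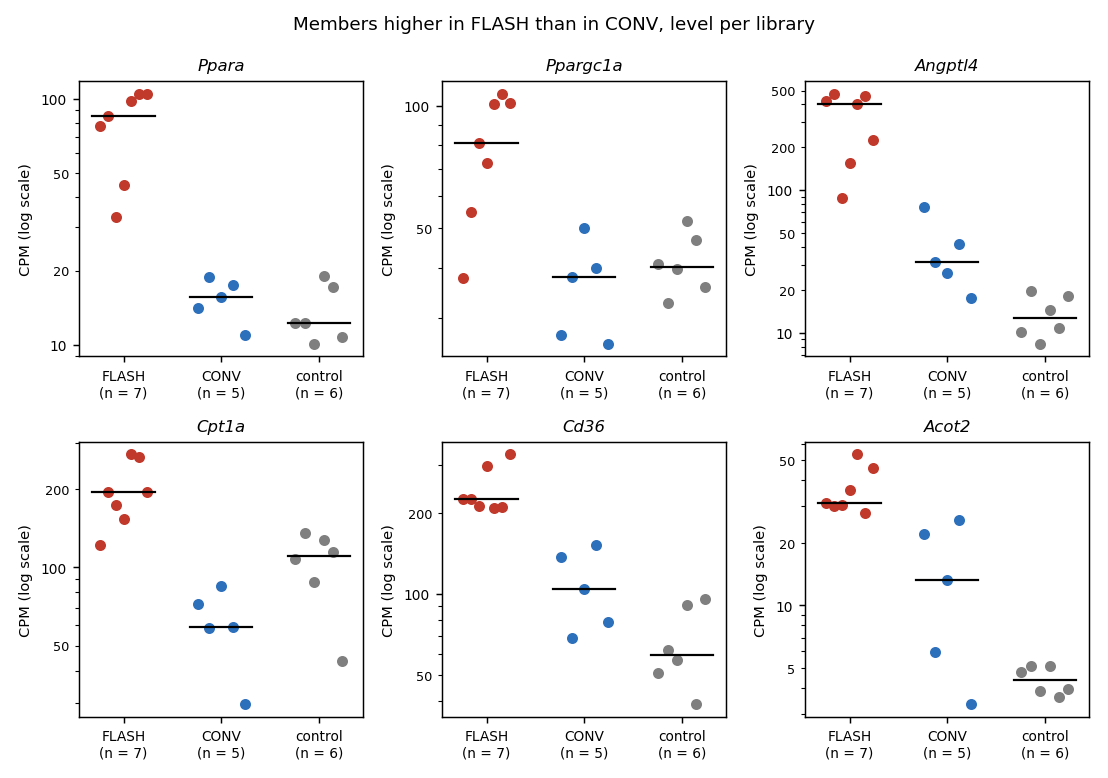
CPM per library on a log axis for 6 genes that were higher in FLASH than in CONV, with each point a library and each line a group median. Ppara in the 7 FLASH libraries lies between 33.1 and 105 CPM, above all CONV and control libraries, and Cpt1a is lower in all 5 CONV libraries than in any FLASH library.

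For uptake and storage, both genes were higher at both dose rates and higher in FLASH than in CONV. Cd36 (ENSMUSG00000002944, chromosome 5, 17781690 to 17888801, minus strand), which encodes a fatty acid translocase of the brush border and of capillaries, measured 209 to 329.5 CPM in FLASH with a median of 225. It measured 137, 68.9, 104, 152 and 78.4 CPM in CONV, and 38.9 to 96.1 CPM in control libraries with a median of 59.4. All FLASH libraries were above every CONV and control library, and CONV 3 and CONV 7 lay within the control range. The log2 fold changes were 1.89 ± 0.23 in FLASH against control (adjusted p = 9.95e-06), 0.71 ± 0.24 in CONV against control (adjusted p = 0.0425) and 1.17 ± 0.24 in FLASH against CONV (adjusted p = 0.00336).

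Plin2 (ENSMUSG00000028494, chromosome 4, 86648386 to 86670060, minus strand), which coats lipid droplets, measured 104 to 239.7 CPM in FLASH with a median of 167. CONV libraries measured 139.7, 65.7, 93.8, 167 and 59.98 CPM, and control libraries 39.04 to 58.5 CPM with a median of 49.4. No irradiated library reached down into the control range, and CONV 2 and CONV 6 lay within the FLASH range. Plin2 differed by 1.82 ± 0.24 in FLASH against control (adjusted p = 1.45e-05), by 1.11 ± 0.25 in CONV against control (adjusted p = 0.00456) and by 0.71 ± 0.24 in FLASH against CONV (adjusted p = 0.0445). The call of Cd36 in CONV against control was lost without any of 8 libraries in turn (control 1, control 2, control 3, control 5, CONV 2, CONV 5, CONV 6 and FLASH 4; adjusted p = 0.0537 to 0.146), and that of Plin2 in FLASH against CONV without any of 9 (control 3, control 4, CONV 3, CONV 5, CONV 7, FLASH 2, FLASH 5, FLASH 6 and FLASH 9; adjusted p = 0.0513 to 0.122).

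PPARs paired with retinoid X receptors bind a repeat of 2 half-sites with 1 base between them, called DR1. The letters AGGTCANAGGTCA were searched on both strands, with up to 2 mismatches, in windows from 250 bases before to 50 bases after the gene starts of RefSeq (GRCm38.p6). Of 26 members with a window, 4 (15.4%) held a match with 2 mismatches, and none a closer one. Among all 27025 genes with a window, 1190 (4.4%) held a match with up to 2 mismatches, 174 (0.644%) with up to 1 and 13 (0.0481%) with none. The matches lie in Cd36, Plin2, Etfa and Slc25a20, and the last lies after the start and is not shown. The stretches below show the 3 matches before a start in capitals with 25 bases on each side, 5′ to 3′ in the direction of each gene, all minus-strand genes. Each match reads as the motif on the strand opposite to its gene. They cover chr4:86670247-86670309, chr5:17835922-17835984 and chr9:55512283-55512345 in the order shown.
Plin2: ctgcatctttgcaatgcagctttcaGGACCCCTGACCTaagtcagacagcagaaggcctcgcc
Cd36: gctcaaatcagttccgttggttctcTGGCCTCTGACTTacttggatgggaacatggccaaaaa
Etfa: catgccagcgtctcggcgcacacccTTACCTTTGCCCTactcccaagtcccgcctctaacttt
The Plin2 match starts 225 bases, the Cd36 match 63 bases and the Etfa match 77 bases before the start. Plin2 and Cd36 were higher at both dose rates and Etfa passed in no comparison. The Cd36 window belongs to a start inside the gene span given above. A match describes letters only, and no match says only that these letters are not in the window.

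The acyl-CoA thioesterase genes gave some of the largest differences. They lie side by side on chromosome 12 and encode near-identical enzymes that release free fatty acids from acyl-CoA, so reads may be divided between the copies. Acot1, the cytosolic form (ENSMUSG00000072949, 84009490 to 84018371, plus strand), measured 22.2 to 65.4 CPM in FLASH with a median of 56.5. CONV libraries held 56.1, 16.04, 36.7, 59.5 and 9.90 CPM, and control libraries held 1.22 to 4.36 CPM with a median of 1.76. All irradiated libraries were above all control libraries, and FLASH and CONV overlapped. It differed by 4.24 ± 0.48 in FLASH against control (adjusted p = 3.49e-06), by 3.90 ± 0.48 in CONV against control (adjusted p = 3.52e-05) and by 0.35 ± 0.43 in FLASH against CONV (adjusted p = 0.607).

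Acot2, the mitochondrial form (ENSMUSG00000021226, 83987861 to 83993873, plus strand), measured 27.9 to 53.5 CPM in FLASH with a median of 31.1. The CONV values were 22.1, 5.93, 13.3, 25.8 and 3.33 CPM, and control libraries held 3.63 to 5.11 CPM with a median of 4.36. FLASH lay above every CONV library, and CONV 7 lay below the lowest control library. Acot2 was higher by 3.05 ± 0.37 in FLASH against control (adjusted p = 7.90e-06), by 1.67 ± 0.37 in CONV against control (adjusted p = 0.00463) and by 1.37 ± 0.37 in FLASH against CONV (adjusted p = 0.0141).

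In the carnitine shuttle the dose rates parted at its first step. Cpt1a (ENSMUSG00000024900, chromosome 19, 3322334 to 3385733, plus strand), the outer membrane enzyme that controls entry of long-chain fatty acids into mitochondria, measured 122 to 272 CPM in FLASH with a median of 194. It measured 72.2, 58.7, 84.8, 58.9 and 29.7 CPM in CONV, and 43.6 to 135 CPM in control libraries with a median of 111. All CONV libraries lay below all FLASH libraries, and below 5 of the 6 control libraries, with control 6 at 43.6 CPM. Cpt1a was higher in FLASH than in CONV by 1.69 ± 0.29 (adjusted p = 0.00104) and higher in FLASH than in control by 0.94 ± 0.26 (adjusted p = 0.00914). Scaled by library totals, the difference of Cpt1a in FLASH against control was 0.56 and did not pass (adjusted p = 0.104). Its log2 fold change of -0.75 ± 0.29 in CONV against control did not pass (adjusted p = 0.0626). Without control 6 it was -0.91 and without CONV 5 -0.90, and both passed as lower (adjusted p = 0.00858 and 0.0440).

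Cpt2 (ENSMUSG00000028607, chromosome 4, 107903981 to 107923610, minus strand), the inner membrane partner of Cpt1a, measured 106 to 192 CPM in FLASH with a median of 167. CONV libraries held 123, 71.7, 105, 114 and 90.7 CPM, and control libraries held 59.2 to 89.6 CPM with a median of 75.2. FLASH was above all control libraries and overlapped CONV. Cpt2 differed by 1.03 ± 0.17 in FLASH against control (adjusted p = 0.000125), by 0.43 ± 0.18 in CONV against control (adjusted p = 0.0829) and by 0.59 ± 0.18 in FLASH against CONV (adjusted p = 0.0236). The last call was lost without CONV 3, CONV 7 or FLASH 6 (adjusted p = 0.0505 to 0.0671), and without CONV 3 the CONV against control difference passed (0.53, adjusted p = 0.0397). Slc25a20, the carnitine-acylcarnitine carrier, was higher in FLASH by 1.31 ± 0.24 (adjusted p = 0.000402) and in CONV by 0.96 ± 0.26 (adjusted p = 0.0140) against control. Its CONV call was lost without CONV 2 or CONV 6 (adjusted p = 0.0510 to 0.0643), the 2 highest CONV libraries at 190.3 and 221 CPM. Crat, which moves acetyl and short acyl groups between carnitine and CoA, passed in no comparison, at 0.35 ± 0.26 in FLASH and 0.60 ± 0.28 in CONV against control. Every CONV library was above every control library for Crat, 108 to 141 CPM against 58.3 to 103 CPM, and the difference passed where only these groups were fitted (0.60, adjusted p = 0.0198).

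Of the 4 acyl-CoA dehydrogenase genes, which catalyse the first oxidation for chains of different length, only those for longer chains passed. Acadl (ENSMUSG00000026003, chromosome 1, 66830839 to 66863277, minus strand), for long chains, measured 296 to 503 CPM in FLASH with a median of 384. CONV libraries held 302, 175, 253, 459 and 141 CPM, and control libraries held 51.97 to 78.6 CPM with a median of 59.1. The highest control library, control 6, was below the lowest irradiated one, CONV 7. Acadl was higher by 2.60 ± 0.24 in FLASH against control (adjusted p = 4.83e-07) and by 2.06 ± 0.25 in CONV against control (adjusted p = 2.40e-05). Between FLASH and CONV it differed by 0.54 ± 0.24 (adjusted p = 0.115), and by 0.82 without CONV 6 (adjusted p = 0.0151).

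Acadvl, for very long chains, was higher by 0.75 ± 0.16 in FLASH (adjusted p = 0.00159) and by 0.67 ± 0.17 in CONV (adjusted p = 0.0118) against control, with 156 to 254 CPM in FLASH, 173 to 257 CPM in CONV and 85.2 to 169 CPM in control libraries. With the length offset, which takes a length trend out of each library, Acadvl in CONV against control was at 0.37 and did not pass (adjusted p = 0.0830). Acadvl shares 1151 of its 2686 exonic bases with Dvl2 on the opposite strand, and whether the counting used strand is not given in the sources used here. Acadm, for medium chains, had log2 fold changes of -0.19 ± 0.19 in FLASH and 0.37 ± 0.20 in CONV against control and -0.56 ± 0.20 in FLASH against CONV (adjusted p = 0.0518). Every FLASH library was below every CONV library for Acadm, 62.7 to 127 CPM against 133 to 187 CPM. This difference passed without control 2, control 6 or FLASH 1 (adjusted p = 0.0240 to 0.0485). It also passed with library totals, the filter of 1 CPM, limma-voom, only the groups compared, 1 surrogate variable and the length offset. In these fits it stood at -0.71 to -0.53 (adjusted p = 0.00325 to 0.0482), and it did not pass under the remaining alternatives. Acads, for short chains, stood at -0.02 ± 0.18 in FLASH and 0.35 ± 0.19 in CONV against control. Acadm and Acads passed in CONV against control without control 6, at 0.53 (adjusted p = 0.0319) and 0.48 (adjusted p = 0.0401).

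The later steps of each round showed their largest change at the thiolase. Acaa2 (ENSMUSG00000036880, chromosome 18), the mitochondrial 3-ketoacyl-CoA thiolase that splits off acetyl-CoA, measured 176 to 589 CPM in FLASH with a median of 410.3. CONV libraries held 423, 229, 319, 468 and 249 CPM, and control libraries 48.9 to 135 CPM with a median of 61.3. No irradiated library overlapped the control range, and FLASH and CONV overlapped each other. Acaa2 differed by 2.38 ± 0.30 in FLASH against control (adjusted p = 1.10e-05), by 2.14 ± 0.31 in CONV against control (adjusted p = 0.000165) and by 0.24 ± 0.30 in FLASH against CONV (adjusted p = 0.610).

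Hadha and Hadhb, the subunits of the trifunctional protein for long chains, are neighbours on opposite strands of chromosome 5. In FLASH against control Hadha was higher by 0.80 ± 0.18 (adjusted p = 0.00207) and Hadhb by 0.78 ± 0.16 (adjusted p = 0.000850). In CONV against control Hadhb was higher by 0.54 ± 0.17 (adjusted p = 0.0293), a call lost without control 1, control 2, control 5, CONV 2, CONV 5 or CONV 6 (adjusted p = 0.05003 to 0.1001), while Hadha, at 0.39 ± 0.19, did not pass (adjusted p = 0.146). Hadha in FLASH against control was at 0.43 and did not pass with library totals (adjusted p = 0.0534), and in CONV against control it passed with the length offset (0.62, adjusted p = 0.0123). The difference between FLASH and CONV did not pass for Hadha (0.41 ± 0.19, adjusted p = 0.130) or Hadhb (0.24 ± 0.16, adjusted p = 0.327). Hadh, the dehydrogenase for short and medium chains, stood at 0.17 ± 0.21 in FLASH and 0.34 ± 0.23 in CONV against control, with 426 to 847 CPM in FLASH, 682 to 928 CPM in CONV and 339.7 to 1004 CPM in control libraries. Without control 6, its highest library, Hadh passed in CONV against control (0.54, adjusted p = 0.0439).

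The 3 auxiliary enzymes of unsaturated fatty acids gave different results. Eci1 (ENSMUSG00000024132, chromosome 17, 24426641 to 24439348, plus strand) and Eci2 encode enoyl-CoA isomerases, which shift double bonds so that oxidation can go on. Eci1 measured 19.9 to 39.4 CPM in FLASH with a median of 32.9. CONV libraries held 63.6, 54.7, 52.2, 69.2 and 64.2 CPM, and control libraries held 32.9 to 86.4 CPM with a median of 45.6. All FLASH libraries were below all CONV libraries, and both groups overlapped the controls. Eci1 was lower in FLASH than in control, at -0.66 ± 0.20 (adjusted p = 0.0136) and lower in FLASH than in CONV, at -0.92 ± 0.21 (adjusted p = 0.00519). In CONV against control it stood at 0.26 ± 0.21 (adjusted p = 0.368), and at 0.48 without control 6 (adjusted p = 0.0367).

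Eci2, by contrast, was higher by 1.82 ± 0.27 in FLASH (adjusted p = 5.11e-05) and by 1.16 ± 0.28 in CONV (adjusted p = 0.00795) against control, with 101 to 183 CPM in FLASH, 41.96 to 142 CPM in CONV and 26.1 to 62 CPM in control libraries. Between FLASH and CONV it differed by 0.66 ± 0.28 (adjusted p = 0.0950), and by 0.90 without CONV 6 (adjusted p = 0.0348). Decr1, the mitochondrial 2,4-dienoyl-CoA reductase, passed in no comparison (0.29 ± 0.22 in FLASH and 0.15 ± 0.24 in CONV against control).

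Electron transfer from the dehydrogenases to ubiquinone runs through the flavoprotein subunits Etfa and Etfb and their oxidoreductase Etfdh, and its changes were small. Etfdh was higher by 0.59 ± 0.15 in FLASH (adjusted p = 0.00451) and by 0.46 ± 0.16 in CONV (adjusted p = 0.0450) against control. With library totals Etfdh was at 0.23 in FLASH (adjusted p = 0.178) and 0.25 in CONV (adjusted p = 0.219) against control. Etfb passed in CONV against control (0.75 ± 0.24, adjusted p = 0.0358) and not in FLASH against control (0.40 ± 0.23, adjusted p = 0.178), and FLASH against CONV did not pass either (-0.35 ± 0.24, adjusted p = 0.308). Etfa stood at 0.17 ± 0.24 in FLASH and 0.27 ± 0.26 in CONV against control. The CONV call of Etfdh was lost without any of 10 libraries in turn (control 1, control 2, control 3, control 5, CONV 2, CONV 5, CONV 6, FLASH 5, FLASH 6 and FLASH 9; adjusted p = 0.0501 to 0.1195), and that of Etfb without any of 6 (control 1, control 2, control 4, control 5, CONV 2 and CONV 6; adjusted p = 0.0601 to 0.135). Without control 6, which held 153 CPM of Etfb, the FLASH against control difference of Etfb was 0.65 and passed (adjusted p = 0.0108). Over 617 of its 1164 exonic bases, Etfb shares exons with another annotated gene on the same strand, so its counts could be divided.

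Among peroxisomal genes, Acaa1b and Pex11a were higher at both dose rates. Acaa1b (ENSMUSG00000010651, chromosome 9, 119148023 to 119157093, minus strand), a peroxisomal thiolase with a close paralog that may share reads, measured 14.1 to 73.7 CPM in FLASH with a median of 58.7. CONV held 58.4, 23.9, 58.9, 70.3 and 27.1 CPM, and control libraries 3.25 to 21.6 CPM with a median of 6.91. FLASH 2 and FLASH 7 lay below control 6, at 21.6 CPM, and CONV did not overlap the controls. Acaa1b differed by 2.35 ± 0.49 in FLASH against control (adjusted p = 0.00109), by 2.44 ± 0.51 in CONV against control (adjusted p = 0.00330) and by -0.08 ± 0.48 in FLASH against CONV (adjusted p = 0.926).

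Pex11a (ENSMUSG00000030545, chromosome 7, 79735957 to 79743131, minus strand), which promotes division of peroxisomes, measured 81.9 to 136 CPM in FLASH with a median of 110.1. CONV libraries held 93, 42.9, 64.1, 130.0 and 57.6 CPM, and control libraries held 15.3 to 49.2 CPM with a median of 25.7. FLASH was above all controls, and of the CONV libraries CONV 3 alone was below control 6. Pex11a was higher by 1.96 ± 0.27 in FLASH (adjusted p = 2.41e-05) and by 1.48 ± 0.28 in CONV (adjusted p = 0.00142) against control. Between FLASH and CONV it differed by 0.48 ± 0.27 and did not pass (adjusted p = 0.222). Hsd17b4, the D-bifunctional protein, passed in FLASH against control (0.77 ± 0.20, adjusted p = 0.00512) and not in CONV against control (0.40 ± 0.21, adjusted p = 0.166) or FLASH against CONV (0.37 ± 0.21, adjusted p = 0.221). With library totals Hsd17b4 in FLASH against control was at 0.41 (adjusted p = 0.110), and with 1 surrogate variable it passed in CONV against control (0.58, adjusted p = 0.0330). Ehhadh, the L-bifunctional protein, stood at 0.50 ± 0.24 in FLASH (adjusted p = 0.110) and 0.71 ± 0.26 in CONV (adjusted p = 0.0545) against control. Its FLASH difference passed without FLASH 7 (0.61, adjusted p = 0.0417), and its CONV difference without control 6, CONV 3, FLASH 1, FLASH 4 or FLASH 7 (adjusted p = 0.0360 to 0.0492).

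**Figure D3:**
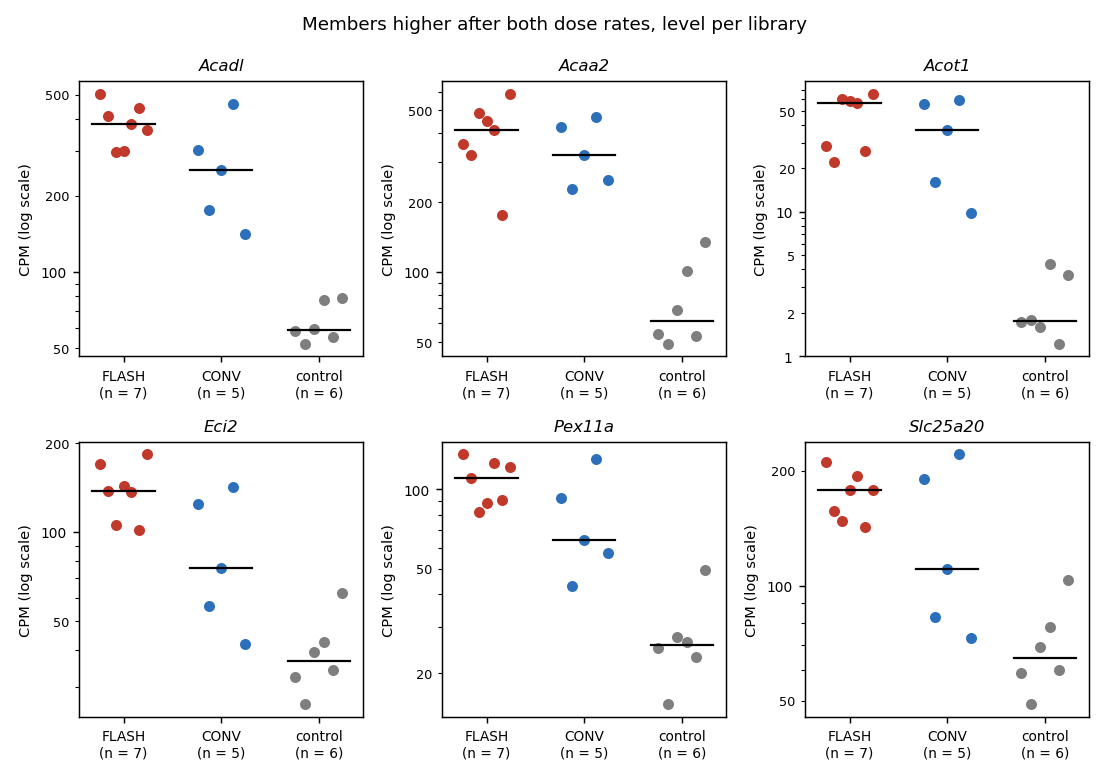
CPM per library on a log axis for 6 genes that were higher than control after both dose rates, with each point a library and each line a group median. For Acadl, Acaa2 and Acot1 no irradiated library reaches the control range, while for Eci2, Pex11a and Slc25a20 the lowest CONV libraries lie within it.

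The microsomal omega-hydroxylases, which oxidize the far end of fatty acids, were at the low end. Cyp4a10 (ENSMUSG00000066072, chromosome 4, 115518264 to 115533649, plus strand) measured 0.641 to 17.95 CPM in FLASH with a median of 9.99. It measured 8.43, 1.85, 10.1, 8.76 and 2.94 CPM in CONV. Of the control libraries 3 were at 0, and the highest was 0.657 CPM. The counts behind these values were 1452 over 7 FLASH, 762.8 over 5 CONV and 34.5 over 6 control libraries. Cyp4a10 differed by 5.42 ± 1.08 in FLASH against control (adjusted p = 0.000757), by 4.94 ± 1.09 in CONV against control (adjusted p = 0.00456) and by 0.48 ± 0.87 in FLASH against CONV (adjusted p = 0.738). Without control 4 the first 2 values were 6.06 and 5.58, and without control 6 they were 6.21 and 5.73. Cyp4a14 (ENSMUSG00000028715, 115486200 to 115496142, minus strand), its neighbour, had 0 counts in every library, which allows up to 3 counts or 0.0892 to 0.157 CPM per library, for counting error only. Genes of this family have close paralogs, and reads may be divided among them.

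Bdh1, which interconverts the ketone bodies acetoacetate and beta-hydroxybutyrate, passed in no comparison, with 58.3 to 101 CPM in FLASH, 58.9 to 99.4 CPM in CONV and 79.1 to 119 CPM in control libraries. Its log2 fold change was -0.21 ± 0.15 in FLASH and -0.36 ± 0.16 in CONV against control. Bdh1 passed as lower in CONV against control with library totals (-0.56, adjusted p = 0.0217), 1 surrogate variable (-0.46, adjusted p = 0.0446) and the length offset (-0.48, adjusted p = 0.0271), and in FLASH against control with library totals (-0.58, adjusted p = 0.00396).

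The remaining PPAR targets went opposite ways. Ucp2 (ENSMUSG00000033685, chromosome 7, 100493337 to 100502020, plus strand), a mitochondrial inner membrane carrier, measured 629 to 1046 CPM in FLASH with a median of 771. CONV libraries held 528, 507, 573, 590.3 and 502 CPM, and control libraries held 309.9 to 401 CPM with a median of 356. The 3 groups did not overlap, with FLASH highest and control lowest. Ucp2 was higher by 1.15 ± 0.13 in FLASH against control (adjusted p = 3.51e-06), by 0.59 ± 0.14 in CONV against control (adjusted p = 0.00603) and by 0.56 ± 0.14 in FLASH against CONV (adjusted p = 0.00821). Scaled by library totals, Ucp2 in CONV against control was at 0.38 and did not pass (adjusted p = 0.0549).

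Vnn1 (ENSMUSG00000037440, chromosome 10, 23894688 to 23905343, plus strand), the pantetheinase of the enterocyte surface that frees cysteamine and pantothenate, measured 32.5 to 164 CPM in FLASH with a median of 111. The CONV values were 263, 282, 251, 129.7 and 165 CPM, and control libraries held 214 to 361 CPM with a median of 249.8. FLASH was below all control libraries, and CONV 6 and CONV 7 were also below them. Vnn1 was lower in FLASH than in control, at -1.35 ± 0.32 (adjusted p = 0.00262) and lower in FLASH than in CONV, at -1.09 ± 0.33 (adjusted p = 0.0255), with -0.26 ± 0.34 in CONV against control (adjusted p = 0.585). The FLASH against CONV call was lost without CONV 2, CONV 3 or CONV 5 (adjusted p = 0.0502 to 0.0633).

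**Figure D4:**
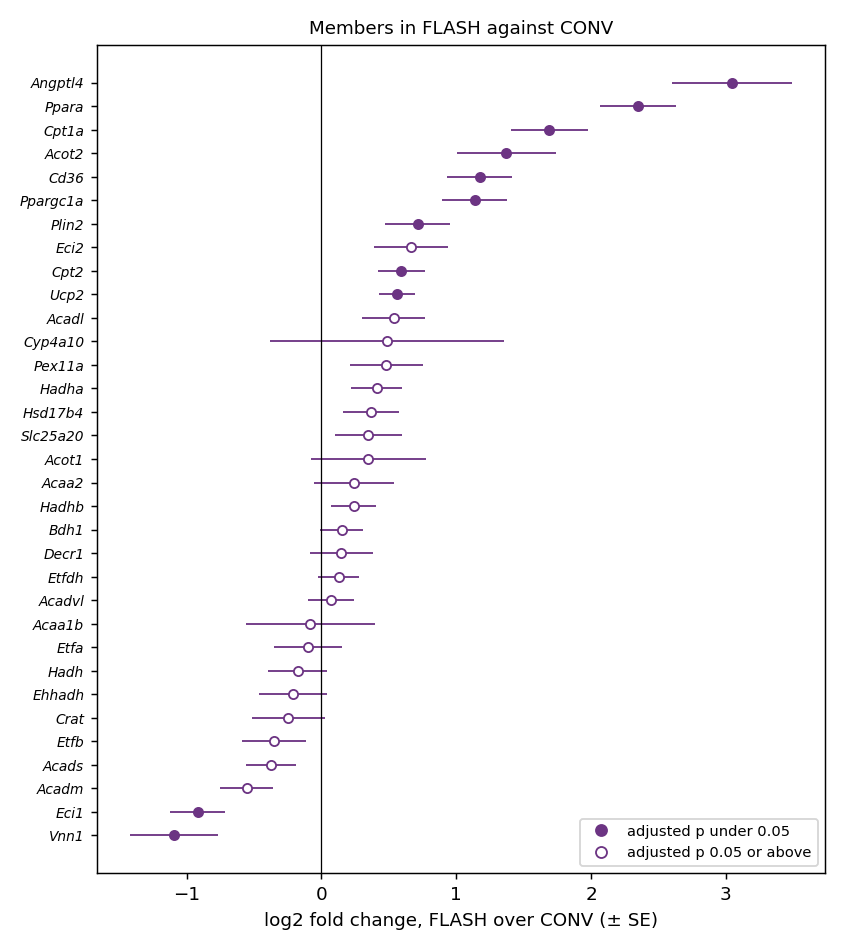
Log2 fold change ± SE of the 33 tested genes in FLASH against CONV, in descending order, with filled symbols where the adjusted p was under 0.05. Angptl4 (3.05), Ppara (2.35) and Cpt1a (1.69) head the order, Eci1 (-0.92) and Vnn1 (-1.09) end it, and 22 open symbols lie between -0.56 and 0.66.

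Ranked by mean CPM per kilobase of annotated exonic sequence, the leading genes of the 34 differed between groups. In FLASH the order began with Acaa2 (263 ± 87.0, SD, n = 7), Acadl (192 ± 37.3) and Hadh (139.9 ± 28.2), in CONV with Acaa2 (223 ± 69.2, n = 5), Hadh (158 ± 18.6) and Acadl (133 ± 62.3), and in controls with Hadh (124 ± 46.9, n = 6), Vnn1 (108 ± 21.6) and Etfa (73.0 ± 31.3). These neighbours lie within the larger SD of each pair except Acadl and Hadh in FLASH and Vnn1 and Etfa in controls. Angptl4 held rank 6 in FLASH (89.8 ± 44.7 CPM per kilobase), rank 27 in CONV (10.9 ± 6.38) and rank 29 in controls (3.84 ± 1.30). Vnn1 held rank 16 in FLASH (42.4 ± 22.3), rank 5 in CONV (90.3 ± 27.7) and rank 2 in controls. These ranks are a description without a test. They depend on the exonic length taken for each gene, such as 6989 bases for Ucp2 and 8730 for Hadha. Whether these lengths match the transcripts present was not tested, so the order is not one of transcript abundance.

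The genes did not vary alike within a group, a pattern noticed after the values were seen. FLASH 1, FLASH 2 and FLASH 7 were the 3 lowest FLASH libraries for 13 of the 33 genes (39.4%), and for 2049 of all 16257 tested genes (12.6%). Cyp4a10 showed this most, with 0.963, 0.641 and 0.746 CPM in these 3 libraries and 9.99 to 17.95 CPM in the other FLASH libraries. Acaa1b had 29.3, 16.4 and 14.1 CPM there and 58.7 to 73.7 CPM in the rest. Ehhadh and Crat had the same split, with 68.9 to 84.4 CPM of Ehhadh and 54.5 to 57.9 CPM of Crat in the 3 libraries, within the control range or just below it.

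Angptl4 and Acadl ran the other way and were highest in FLASH 1, FLASH 2 and FLASH 7, as 8.89% of all tested genes were. Angptl4 had 423, 473 and 461 CPM in these libraries, and its lowest FLASH values in FLASH 4 (88.3 CPM) and FLASH 5 (155 CPM). Ppara was also lowest in FLASH 4 (33.1 CPM) and FLASH 5 (44.7 CPM). The FLASH libraries with the most Angptl4 mRNA were those with the least Cyp4a10, Acaa1b, Ehhadh and Crat mRNA. The 3 libraries are no group of the study, and no test was made of them.

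**Figure D5:**
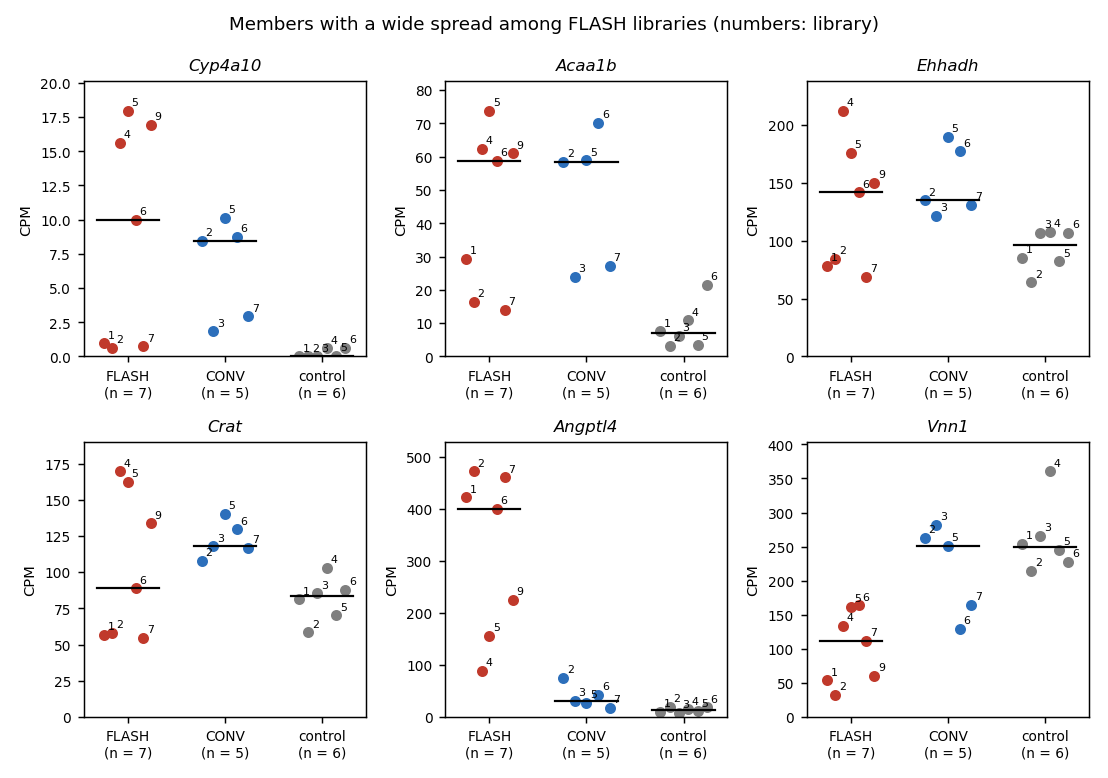
CPM per library for 6 genes with a wide spread among FLASH libraries, with numbers giving the library and lines the group median. FLASH 1, 2 and 7 lie at 0.641 to 0.963 CPM of Cyp4a10, against 9.99 to 17.95 CPM in the other FLASH libraries, but at 423 to 473 CPM of Angptl4, against 88.3 to 400.2 CPM.

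The CONV libraries had an order of their own. For 13 of the 33 genes (39.4%), among them Cd36, Plin2, Acot1, Acot2, Acadl, Acaa2 and Pex11a, CONV 3 and CONV 7 were the 2 lowest and CONV 2 and CONV 6 the 2 highest CONV libraries, as for 926 of all tested genes (5.7%). Among the CONV libraries, CONV 2 and CONV 6 also had the steepest slopes of log2 expression on log2 exonic length relative to the mean library, -0.24 and -0.33, against 0.03 in CONV 3, 0.04 in CONV 5 and -0.16 in CONV 7. Control 6, the highest control library for Cd36, Plin2, Acadl, Acaa2 and Pex11a, had a slope of -0.33. The part of this length trend in the order of the libraries was not tested. With an offset that removes the trend from each library, 23 genes were higher and 2 lower in FLASH against control, 16 and 1 in CONV against control, and 10 and 2 in FLASH against CONV.

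Some markers of cell types differed in the same comparisons. Beside the counts below, 16.7% of all tested genes were higher and 21% lower in FLASH against control. The shares were 10.2% and 12% in CONV against control, and 9.88% and 9.91% in FLASH against CONV. The summed level of 7 villus tip markers was 5580 to 9560 CPM in FLASH, 4350 to 5750 CPM in CONV and 2450 to 4640 CPM in control libraries. In that list 5 of 7 genes were higher in FLASH and 3 of 7 in CONV against control. The sum of 7 crypt base stem cell markers was 128 to 230 CPM in FLASH, 106 to 255 CPM in CONV and 790 to 1340 CPM in control libraries. Of the 7, 7 were lower in FLASH and 4 in CONV against control, and most of the control sum was Olfm4, with 49.5 ± 32.8 CPM in FLASH, 31.2 ± 27.7 CPM in CONV and 762 ± 142 CPM in control libraries (SD, n = 7, 5 and 6). Enterocyte markers were higher for 9 of 13 genes in FLASH (69.2%) and 2 of 13 in CONV (15.4%) against control. In FLASH against CONV 4 of 13 (30.8%) were higher. Of 8 smooth muscle markers, 8 were lower in FLASH and 3 in CONV against control, with sums of 422 to 1330 CPM in FLASH, 185 to 1260 CPM in CONV and 1330 to 3760 CPM in control libraries. Of 8 macrophage markers, 1 was higher and 3 were lower in FLASH and 3 were lower in CONV against control, and of 8 endothelial markers 2 were lower in CONV against control. Exocrine pancreas markers summed to 3.59 to 8.27 CPM in FLASH, 3.35 to 8.98 CPM in CONV and 2.11 to 12.3 CPM in control libraries. The part of these shifts in the values of the fatty acid oxidation genes was not tested.

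The sum of 9 adipocyte markers was 191 to 439 CPM in FLASH, 150 to 270 CPM in CONV and 67.0 to 156 CPM in control libraries. Most of it came from Cidec and Fabp4, which are PPAR targets and are also expressed outside fat. Of 8 tested markers, 2 were higher and 1 lower in FLASH and 1 was higher in CONV against control. In FLASH against CONV 1 was higher. Adipoq measured 0 to 5.43 CPM in FLASH, 0 to 6.96 CPM in CONV and 0.261 to 9.69 CPM in control libraries. Plin1 was lower in FLASH than in control, at -2.08 ± 0.78 (adjusted p = 0.0411). This rests on low levels, 0 to 0.959 CPM in FLASH and 0.186 to 4.60 CPM in control libraries. Ucp1 was at 0 in all libraries. The sum of 7 hepatocyte markers, 17 to 112 CPM in FLASH, 3.33 to 54.0 CPM in CONV and 3.22 to 5.55 CPM in control libraries, was mostly Ttr.

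Other genes of the pathway were read from further lists, chosen like the members with earlier results known. Of 25 other beta-oxidation genes, 12 were higher and 2 lower in FLASH against control (48% and 8%, against 16.7% and 21% of all tested genes, median 0.46). In CONV against control 11 were higher and 1 lower (44% and 4%, against 10.2% and 12%, median 0.66). In FLASH against CONV 1 was higher and 0 lower (4% and 0%, against 9.88% and 9.91%, median -0.03). That gene was Acsl1, a long-chain acyl-CoA synthetase that activates fatty acids. It measured 191 to 325 CPM in FLASH, 55.1 to 126 CPM in CONV and 37 to 55.2 CPM in control libraries, without overlap of any 2 groups but CONV and control. Its log2 fold change was 2.56 ± 0.19 in FLASH against control (adjusted p = 5.48e-08), 1.16 ± 0.20 in CONV against control (adjusted p = 0.000600) and 1.40 ± 0.20 in FLASH against CONV (adjusted p = 0.000278). Acsl5, another synthetase, was higher by 1.26 ± 0.17 in FLASH and 1.06 ± 0.18 in CONV against control, the peroxisomal thioesterase gene Acot4 by 2.01 ± 0.33 and 1.86 ± 0.35, and Acot3, a paralog of both Acot1 and Acot2, by 5.33 ± 0.75 and 4.50 ± 0.77. Acot3 measured 0.642 to 3.26 CPM in FLASH, 0.213 to 1.86 CPM in CONV and 0 to 0.112 CPM in control libraries. The size of its fold changes therefore rests on controls near 0.

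Among other ketogenesis genes, Slc16a1, a carrier of lactate and ketone bodies, was higher in FLASH against control (0.63 ± 0.12, adjusted p = 0.000412) and against CONV (0.80 ± 0.12, adjusted p = 0.000539). Oxct1, which starts the use of ketone bodies, was lower in FLASH, at -0.91 ± 0.18, and in CONV, at -0.74 ± 0.20, against control.

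Of 20 other PPAR targets 15 were tested. In FLASH against control 9 were higher and 1 lower (60% and 6.67%, against 16.7% and 21% of all tested genes, median 1.05). In CONV against control 7 were higher and 1 lower (46.7% and 6.67%, against 10.2% and 12%, median 0.50). In FLASH against CONV 4 were higher and 1 lower (26.7% and 6.67%, against 9.88% and 9.91%, median 0.12). Pdk4, the kinase that shuts off pyruvate dehydrogenase, measured 189 to 716 CPM in FLASH, 9.19 to 39.4 CPM in CONV and 2.49 to 9.46 CPM in control libraries. It differed by 6.51 ± 0.49 in FLASH against control (adjusted p = 5.48e-08), 2.39 ± 0.42 in CONV against control (adjusted p = 0.000836) and 4.12 ± 0.47 in FLASH against CONV (adjusted p = 0.000102). Also higher in FLASH than in CONV were Txnip, an inhibitor of thioredoxin (1.19 ± 0.21), the lipid droplet gene Cidec (0.86 ± 0.27) and Creb3l3 (0.82 ± 0.26), a liver and intestine transcription factor of lipid metabolism, while Fabp2, an intestinal fatty acid binding protein, was the 1 gene lower (-0.82 ± 0.29, adjusted p = 0.0491). Slc27a2, an acyl-CoA synthetase of very long chains, was higher by 2.12 ± 0.28 in FLASH and 1.62 ± 0.29 in CONV against control, and the desaturase gene Fads2 was lower, at -1.67 ± 0.24 in FLASH and -1.51 ± 0.26 in CONV.

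The PPAR system list held the other receptors, their partners and cofactors, 13 of 14 tested. In FLASH against control 2 were higher and 0 lower (15.4% and 0%, against 16.7% and 21% of all tested genes, median 0.15). In CONV against control 1 was higher and 2 lower (7.69% and 15.4%, against 10.2% and 12%, median -0.44). In FLASH against CONV 4 were higher and 0 lower (30.8% and 0%, against 9.88% and 9.91%, median 0.65). The 4 were Pparg, the receptor best known from fat cells (1.41 ± 0.28, adjusted p = 0.00279), Rxra, a retinoid X receptor (0.80 ± 0.20, adjusted p = 0.00953), Ppard (0.81 ± 0.21, adjusted p = 0.0117) and the coactivator gene Ncoa2 (0.79 ± 0.27, adjusted p = 0.0482). Pparg measured 12.1 to 25.8 CPM in FLASH, 4.40 to 11.9 CPM in CONV and 3.03 to 9.27 CPM in control libraries. Against control, Pparg (1.82 ± 0.27) and Hnf4g (0.83 ± 0.19) passed in FLASH, and Esrra (0.81 ± 0.23), Ppargc1b (-1.11 ± 0.34) and Med1 (-0.50 ± 0.17) in CONV. Rxra, Ppard and Ncoa2 did not pass in FLASH against control (0.36, 0.39 and 0.24) or in CONV against control. Their mean levels were 159, 193 and 61.1 CPM in FLASH and 91.2, 110.5 and 35.3 CPM in CONV libraries. Control libraries held 124, 147 and 51.6 CPM, above the CONV means. Values of these 3 genes with the length offset are not given here.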

How the data were processed

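Stranded mRNA libraries from 250 ng of RNA of whole jejunum were sequenced as single-end reads of 100 bases, per the labels' protocols. The submitters' processing notes name STAR, Salmon, edgeR 3.40.2, limma 3.54.2 and mm10; the STAR and Salmon versions and the use of strand in counting are not given in the sources used here. The authors' deposited count table holds expected counts (estimated reads per Ensembl gene, not scaled), 73.3 to 76.9% of the nonzero values whole, which were rounded. The authors' second deposited table holds log2 values they normalized for 19193 genes and served for 1 alternative.

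Symbols, coordinates and exonic lengths came from GENCODE M21 (GRCm38, the same assembly as mm10). All 18 libraries entered 1 edgeR 4.0.16 fit in R 4.3.3 (filterByExpr, TMM factors, robust dispersion, quasi-likelihood F test) with Benjamini-Hochberg adjustment over 16257 genes and a threshold of 0.05. Each SE was derived from the log2 fold change and its F statistic (the absolute value divided by the root of F). CPM use TMM-scaled library sizes. Groups and replicate numbers came from the labels. No 2 libraries of a group were duplicates (lowest chi-square per degree of freedom 25.2).

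The members and all lists were chosen with earlier results of these data known. Every member is named. Values by library are given for members that passed in FLASH against CONV, for the 10 with the largest log2 fold changes among those that passed against control, and for Ppara, Ppargc1a, Cpt1a and Cyp4a14. Of other lists, genes were named among the 4 with the smallest p per comparison, except Fabp2 in FLASH against CONV, which was chosen after its value was seen. A gene of the other lists is not reported here. Alternatives were DESeq2 size factors, library totals, low-count filters (1 count in any library, or 1 CPM on average), DESeq2 1.42.0, limma-voom and limma-trend (limma 3.58.1), fits of only the groups compared, a replicate block, 1 surrogate variable (sva 3.50.0), a length offset (spline with 4 degrees of freedom), leaving out each library, and leaving out control 6, CONV 6 and FLASH 1 together. The pipeline was tested on simulated counts for each comparison. It recovered 38.4 to 40.8% of 2-fold and 83 to 91.9% of 4-fold changes. Of its calls, 4.44% were false in FLASH against control, 6.2% in CONV against control and 7.8% in FLASH against CONV. Promoter windows came from RefSeq. Tables and figures used matplotlib 3.10.9, pandas 2.3.3 and numpy 2.4.6 under Python 3.11.15.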

Additional observations from a re-analysis of the deposited data

Results flagged for a closer look

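In 5 of 99 group values of the members, the highest library stood apart from the rest of its group by a larger share of the group's range than Dixon's 95% critical value allows. Chance gives about 1 in 20 such groups. All 5 were control libraries. Control 4 held 358 CPM of Hadha, against 190.3 to 248 CPM in the other controls, 192 CPM of Hsd17b4, against 106 to 137 CPM, and 360.5 CPM of Vnn1, against 214 to 266 CPM. Control 6 held 153 CPM of Etfb, against 53.9 to 90.8 CPM, and 49.2 CPM of Pex11a, against 15.3 to 27.5 CPM. The calls of Hadha, Hsd17b4, Pex11a and Vnn1 in FLASH against control were kept without each library in turn.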

How the results depend on the processing

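Of the 24 members called in FLASH against control, all 24 passed without each library in turn, as did 11 of 17 in CONV against control and 8 of 11 in FLASH against CONV; no called member changed sign under any alternative run. Leaving out 1 library gave 24 to 25, 11 to 23 and 8 to 13 members called in these comparisons, with 11 without CONV 2 and 23 without control 6 as the extremes in CONV against control, where the count over all genes moved between 1869 (without CONV 6) and 6493 (without control 6). It was 2171 without CONV 2, 2277 without control 2 and 2359 without control 5.

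Same-numbered libraries did not deviate together: of 13 pairs across groups 3 had a correlation over 0.1 (range -0.27 to 0.61), and 4 of 18 libraries matched best with their own number, so the numbers were not read as pairing the libraries. With the replicate block, 22 members (21 higher, 1 lower) and 4279 genes passed in FLASH against control, 17 and 2525 in CONV against control, and 7 (6 higher, 1 lower) and 1569 in FLASH against CONV. In the last, Plin2, Cpt2, Ucp2 and Vnn1 were lost (adjusted p = 0.0521, 0.143, 0.0600 and 0.102), and in FLASH against control Cpt1a (0.98, adjusted p = 0.0586) and Eci1 (-0.58, adjusted p = 0.0860). With 1 surrogate variable 17 members (12 higher, 5 lower) and 6066 genes passed in FLASH against CONV.

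With library totals in place of TMM factors, 1381 genes were called higher and 6550 lower in FLASH against control, 909 and 2846 in CONV against control, and 911 and 2816 in FLASH against CONV. Cpt1a (0.56), Hadha (0.43), Etfdh (0.23) and Hsd17b4 (0.41) then did not pass in FLASH against control, Acadm (-0.54), Acads (-0.38) and Bdh1 (-0.58) passed as lower there, and in CONV against control Cd36 (0.49), Hadhb (0.32), Etfb (0.53), Etfdh (0.25) and Ucp2 (0.38) did not pass and Cpt1a (-0.99) and Bdh1 (-0.56) passed as lower, Cpt1a also with DESeq2 (-0.73). The CONV against control call of Cd36 was also lost with the filter of 1 count, limma-trend, only the groups compared, the block, 1 surrogate variable and the length offset (0.50 to 0.76), and those of Etfb, Hadhb and Etfdh under several of these. In FLASH against CONV, Plin2 and Cpt2 did not pass with the filter of 1 count, Plin2 and Vnn1 with only the groups compared, and Vnn1 with the length offset. In this comparison Acadl, Acadm, Acads, Eci2, Etfb and Pex11a, not called above, passed under some of the alternatives.

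Signs differed from the values above only for members that were not called. In FLASH against control these were Acads with DESeq2 size factors (0.017), DESeq2 (0.017), limma-trend (0.023), the replicate block (0.034), without the 3 steepest libraries (0.13) and without 1 library (-0.067 to 0.11), Crat (-0.0016), Hadh (-0.18), Decr1 (-0.066) and Etfa (-0.19) with library totals, Hadh (-0.029), Decr1 (-0.020) and Etfa (-0.17) with 1 surrogate variable, and Etfa (-0.0084) with the length offset. In CONV against control they were Decr1 (-0.063) and Ppara (-0.033) with library totals, Decr1 (-0.16) and Etfa (-0.071) with 1 surrogate variable, and Acads (-0.0062), Eci1 (-0.064) and Etfa (-0.087) with the length offset. In FLASH against CONV they were Acadvl (-0.073), Decr1 (-0.0028), Etfdh (-0.021) and Bdh1 (-0.020) with library totals, Cyp4a10 with limma-voom (-0.33), limma-trend (-0.31) and the replicate block (-1.14), Acadvl (-0.059) and Acaa2 (-0.026) with the block, Acaa1b (0.0009) with 1 surrogate variable, Etfa (0.079), Etfdh (-0.073) and Acaa1b (0.13) with the length offset, Acaa1b (0.18) without the 3 steepest libraries, and, without 1 library, Etfa (-0.22 to 0.066) and Acaa1b (-0.25 to 0.099). The causes were not tested. Depth limits Cyp4a10, with 34.5 counts over the controls, and Cyp4a14.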

Other observations

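Fatty acid synthesis, the opposite route, was read from a list of 12 genes. Of these, 3 were higher and 6 lower in FLASH against control (median -0.94), where 16.7% of all tested genes were higher and 21% lower. In CONV against control 1 was higher and 5 lower (median -0.76), where the shares of all tested genes were 10.2% and 12%. In FLASH against CONV 1 was higher and 0 lower (median 0.09), where the shares of all tested genes were 9.88% and 9.91%. The elongase genes Elovl5 and Elovl6 were lower in FLASH against control, at -0.94 ± 0.14 and -0.98 ± 0.15, and in CONV against control, at -0.78 ± 0.15 and -0.76 ± 0.17. Scd2, a stearoyl-CoA desaturase, was at -2.41 ± 0.44 in FLASH (adjusted p = 0.000342) and at -1.55 ± 0.48 in CONV (adjusted p = 0.0277) against control. Acaca, which encodes an enzyme that makes malonyl-CoA, was lower in FLASH, at -1.12 ± 0.34 (adjusted p = 0.0141), and in CONV, at -1.49 ± 0.38 (adjusted p = 0.0105). Srebf1, which encodes a transcription factor that turns on lipid synthesis, was higher in FLASH against control (2.21 ± 0.32, adjusted p = 3.95e-05) and in FLASH against CONV (1.38 ± 0.33, adjusted p = 0.00766), and stood at 0.84 ± 0.33 in CONV against control (adjusted p = 0.0697).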
